A study of Rattus norvegicus with 56 samples.

Results

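Levels of 5 miRNAs that are cut from introns of protein-coding host genes were followed in rat hippocampus: rno-miR-346 (host Grid1), rno-miR-139-5p (Pde2a), rno-miR-149-5p (Gpc1), rno-miR-504 (Fgf13) and rno-miR-335 (Mest). These 5 are among 367 mature miRNAs counted. They were chosen by measured values, the differences of their levels between TBI and sham rats at single intervals. Every TBI and sham difference of a member is therefore given as a description. No p-value of such a difference is printed, and the count of those called is given only beside its background. Small RNA was sequenced from the hippocampus of 56 rats, 28 after fluid percussion injury (TBI), in which a fluid pressure pulse strikes the exposed dura, and 28 after sham surgery. Each treatment held 4 rats at each interval, of which there were 7, from 24 h and 2 w through 1 m, 2 m, 3 m and 6 m to 1 y after surgery. The strain, sex and age of the rats are not given in the sources used here. Each interval has samples of its own, so interval and age cannot be told apart. The study states that 56 rats were used. The sample titles hold numbers, but the labels do not say that these number rats. The same number occurs, with a different letter, in the titles of a sham sample at 3 m and a sham sample at 1 y. Whether it names the same rat is not stated. A rat number here is only the order of the samples within a group.

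All 5 miRNAs passed the filter on low counts, as did 244 of the 367 over all libraries. Total counts ranged from 2083604 to 12468979 in 55 libraries (median over all 56, 5332934.5), and 1 library, TBI rat 1 at 2 m, held 69628. The 5 miRNAs had 9, 737, 118, 70 and 8 reads in that library, in the order above, and results at 2 m are given with and without it. The sample titles at 2 w and 6 m begin with another word than those at the other intervals, so handling and interval cannot be told apart either.

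A miRNA made from an intron is released from the host's transcript by Drosha and trimmed by Dicer, and 1 strand of the duplex is loaded into an Argonaute protein. Bases 2 to 8 from its 5′ end, the seed, pair with target mRNAs and lower their translation or stability. Such a miRNA can be transcribed together with its host or from a start of its own. Grid1 encodes an orphan member of the ionotropic glutamate receptor family, Pde2a a phosphodiesterase that cGMP stimulates, Gpc1 a cell-surface heparan sulfate proteoglycan, Fgf13 an intracellular growth factor homologue that binds voltage-gated sodium channels, and Mest an imprinted gene. Host transcripts were not analysed here.

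The mature sequences of the 4 members that matched the RefSeq table by name (GRCr8) are shown because no seed is shared among them and because their GC content is given beside the values at 1 m. Capitals mark the seed.
rno-miR-346: uGUCUGCCugagugccugccucu
rno-miR-139-5p: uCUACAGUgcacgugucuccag
rno-miR-149-5p: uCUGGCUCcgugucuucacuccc
rno-miR-504: aGACCCUGgucugcacucuguc

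The sequences are 22 or 23 bases long. No seed was shared among these 4 or with any other of the 307 counted miRNAs that matched RefSeq by name. These 4 therefore form no seed family. The seed of miR-335, which did not match, was not compared. In GRCr8 miR-346 lies at chr16:10224315-10224337 on the plus strand, within the bounds of Grid1. miR-139-5p lies at chr1:165290865-165290886 on the plus strand, within Pde2a and on its strand. miR-149-5p lies at chr9:100861814-100861836 on the plus strand, within the bounds of Gpc1. miR-504 lies at chrX:142354466-142354487 on the minus strand, within Fgf13 and on its strand. Exon bounds and the strands of Grid1 and Gpc1 were not used here. The GC content was 60.9% in miR-346 and miR-149-5p, 59.1% in miR-504 and 54.5% in miR-139-5p, against a median of 45.8% over the 222 tested miRNAs with a sequence.

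Levels are given as CPM (counts per 1000000 counts of the library, scaled by the trimmed mean of M-values, TMM). miR-139-5p was the most abundant of the 5, with a median of 7757 CPM over the 55 deeper libraries, 24th of 244. miR-149-5p had a median of 2057 CPM (41st) and miR-504 of 1083 CPM (54th). miR-335 and miR-346 had medians of 194 and 188 CPM, near the middle of the list (miR-346 was 104th). Reads of different miRNAs also differ in how well the adapters ligate, so this is an order of reads rather than of molecules. Rats of a group differed least in miR-139-5p, whose within-group SD of log2 CPM was 0.13, smaller than that of all but 1.64% of the miRNAs tested. The SD was 0.18 for miR-346, 0.25 for miR-149-5p, 0.31 for miR-504 and 0.38 for miR-335, and the median over all miRNAs was 0.28.

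**Figure D1:**
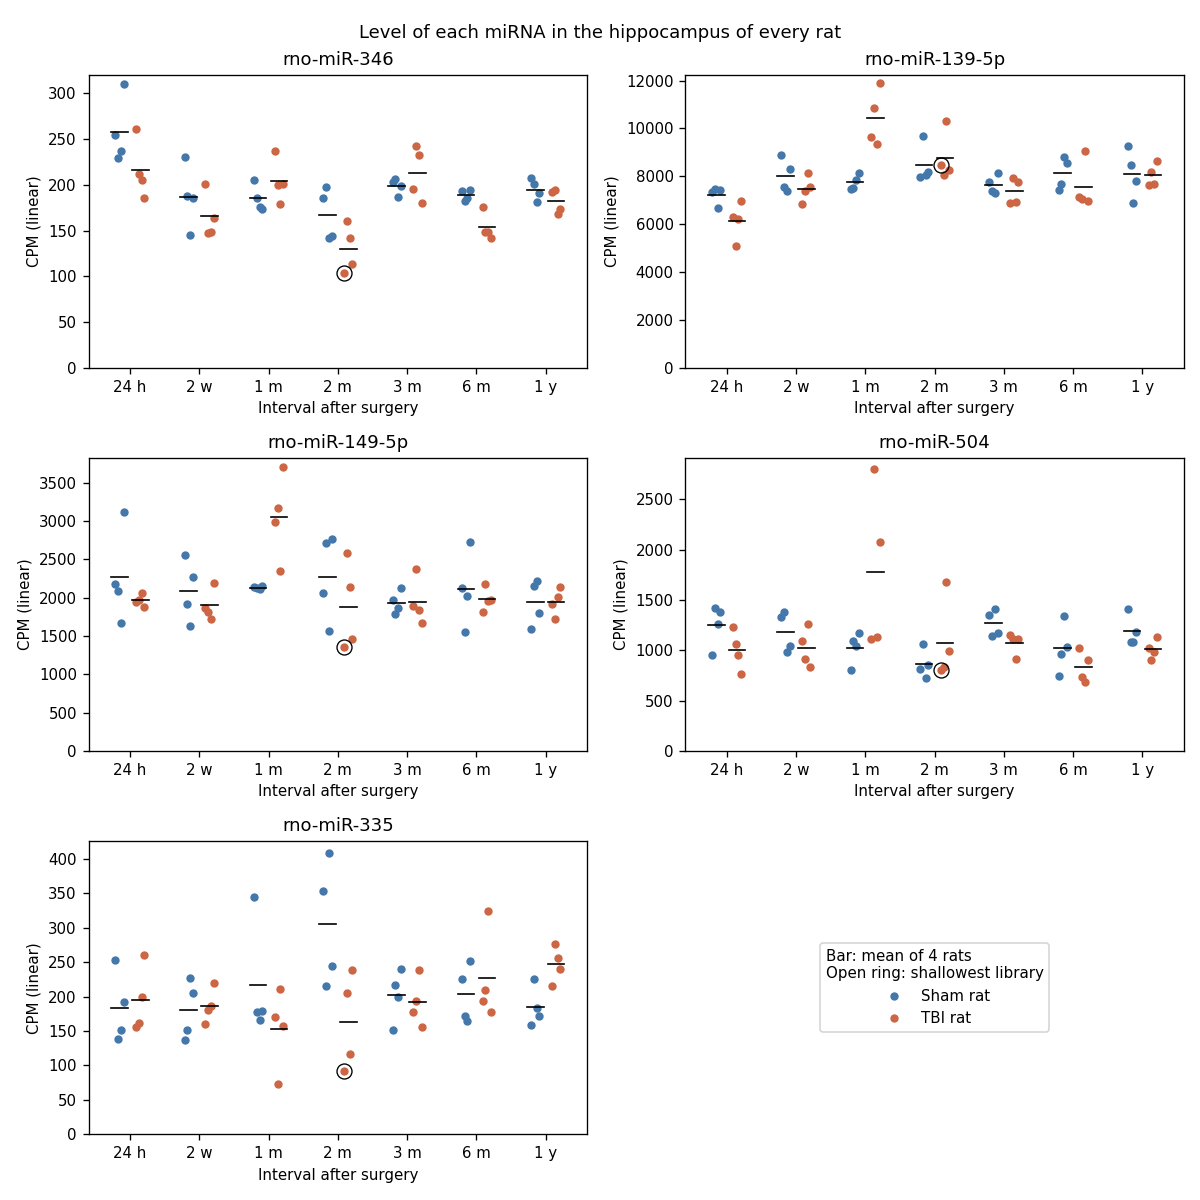
Level of each miRNA (CPM, linear axis from 0) in every rat by interval after surgery, with sham rats in blue, TBI rats in orange, a bar at the mean of 4 rats and an open ring around the shallowest library. The 4 TBI rats at 1 m lie above the 4 sham rats for miR-139-5p and miR-149-5p, and the 4 TBI rats at 6 m lie below the sham rats for miR-346.

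In 35 comparisons of a member between TBI and sham rats (5 miRNAs at 7 intervals), the 4 TBI rats did not overlap the 4 sham rats in 3. TBI rats were above in miR-139-5p and miR-149-5p at 1 m and below in miR-346 at 6 m. No member had an edgeR quasi-likelihood adjusted p under 0.05 at any interval. These contrasts chose the members, so the counts carry no information of their own, and the background over all miRNAs stands beside them below.

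miR-139-5p at 1 m was 9643, 10855, 9365 and 11899 CPM in the TBI rats and 7470.1, 7525, 7853 and 8119.7 CPM in the sham rats. The groups did not overlap, and the lowest TBI rat stood above the highest sham rat. The means were 10440.5 ± 1168 and 7742 ± 303 CPM (SD, n = 4 each), a log2 fold change of 0.49 (SE 0.16). At 24 h the order was the other way for 3 of the 4 TBI rats, with 6299, 5093, 6225 and 6969 CPM after TBI and 7360.1, 7453, 6659.6 and 7445 CPM after sham surgery (log2 fold change -0.23, SE 0.12). At the other 5 intervals the groups overlapped, and the log2 fold change lay between -0.12 at 6 m and 0.03 at 2 m.

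miR-149-5p at 1 m was 2987, 3163, 2349 and 3704 CPM in the TBI rats, while the sham rats lay close together at 2139.9, 2127, 2119 and 2147 CPM. The lowest TBI rat exceeded the highest sham rat. The means were 3051 ± 559 and 2133 ± 12.5 CPM (SD, n = 4 each), a log2 fold change of 0.58 (SE 0.18). The sham rats differed more from each other at the other intervals, with an SD between 146 CPM at 3 m and 614 CPM at 24 h. At the other 6 intervals the groups overlapped, with log2 fold changes from -0.29 (SE 0.23) at 2 m to 0.05 (SE 0.10) at 3 m. At 24 h the value of -0.20 became 0.02 without sham rat 4, which had 3124 CPM.

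miR-504 at 1 m was 1112, 2805, 1137 and 2072 CPM after TBI and 804, 1091, 1048 and 1168 CPM after sham surgery. TBI rats 2 and 4 stood above all sham rats, and TBI rats 1 and 3 lay within the sham range. The log2 fold change of 0.87 (SE 0.29) was the highest of the 35, and it was 0.49 without TBI rat 2. At 2 m TBI rat 3 had 1676 CPM, against 803.5, 835 and 991 CPM in the other TBI rats and 728 to 1067 CPM in the sham rats. The log2 fold change at 2 m was 0.31 (SE 0.24), 0.02 without that rat, and 0.40 without the shallowest library. At the other 5 intervals TBI rats were lower on average, by log2 fold changes of -0.18 at 2 w to -0.32 at 24 h, with overlap at each.

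At 1 m, 24 of 240 miRNAs (10%) had TBI and sham groups that did not overlap, and 0.417% had an adjusted p under 0.05 by edgeR's quasi-likelihood test (1 miRNA), while 42 had an unadjusted p under 0.05 and the Wald test of DESeq2 called 5. Of the 7 intervals this one had the highest share of non-overlapping miRNAs and the most with an unadjusted p under 0.05. The base composition of the libraries at 1 m also differed between TBI rats 1, 2 and 4 and the sham rats. In each library, the log2 CPM of the other tested miRNAs with a sequence, each minus its mean over libraries, was fitted on their GC content. The slope per 10 percentage points of GC was 0.22, 0.27, -0.02 and 0.17 in TBI rats 1 to 4 at 1 m, and between -0.01 and 0.02 in the sham rats. GC-rich miRNAs were thus read at higher relative levels on average in TBI rats 1, 2 and 4 than in the sham rats, and all 4 members with a sequence are GC-rich.

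With the trend of each library removed, an alternative chosen after the data were seen, the log2 fold change at 1 m was 0.31 for miR-139-5p, 0.29 for miR-149-5p and 0.57 for miR-504. TBI and sham rats did not overlap for miR-139-5p (8598 to 10888 against 7466 to 8127 CPM) and miR-149-5p (2406 to 3145 against 2096 to 2150 CPM). TBI rat 3, with a slope of -0.02, had 9365 CPM of miR-139-5p and 2349 CPM of miR-149-5p before this removal, above all sham rats in both. It had 1137 CPM of miR-504, within the sham range. For miR-346 the log2 fold change at 1 m turned from 0.20 (SE 0.19) to -0.08. These values hold those that chose the members, and TBI rat 3 is a single library. The part of base composition in the result was not tested.

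**Figure D2:**
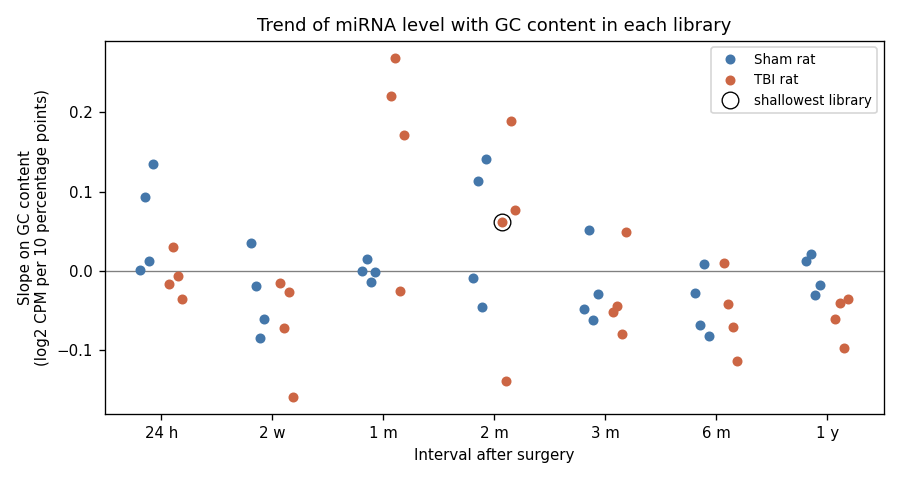
Slope of miRNA level on GC content in each library (log2 CPM per 10 percentage points of GC, members left out) by interval, with sham rats in blue, TBI rats in orange and an open ring around the shallowest library. At 1 m 3 of the 4 TBI rats lie between 0.17 and 0.27, above all sham rats of that interval, and TBI rat 3 at 2 m lies at 0.19.

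miR-346 at 6 m was 175, 148.1, 148.4 and 142 CPM in the TBI rats and 193, 182, 186.1 and 194 CPM in the sham rats. All TBI rats were below all sham rats. The means were 153.4 ± 14.9 and 188.9 ± 5.80 CPM (SD, n = 4 each), a log2 fold change of -0.30 (SE 0.12), and it was -0.29, still without overlap, after the GC trend was removed. The background at 6 m was 1.34% of miRNAs without overlap and 0% with an adjusted p under 0.05. At 24 h miR-346 was 261, 212, 205 and 185.9 CPM after TBI and 254, 229, 237 and 309.8 CPM after sham surgery. Of the TBI rats 3 lay below the whole sham group (log2 fold change -0.25, SE 0.15), and the value was -0.13 without sham rat 4. At 2 m the log2 fold change was -0.35 (SE 0.20), or -0.32 without the shallowest library, in which the level rests on 9 reads. At 1 m and 3 m it was above 0, at 0.20 (SE 0.19) and 0.14 (SE 0.11).

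miR-335 had its largest difference at 2 m, in the direction opposite to miR-504. The TBI rats had 91.8, 205, 117 and 239 CPM and the sham rats 353, 215, 409 and 245 CPM. TBI rats 1, 2 and 3 were below the whole sham group, and TBI rat 4 lay within the sham range. The means were 163 ± 70.0 and 305 ± 90.9 CPM (SD, n = 4 each), a log2 fold change of -0.83 (SE 0.30). The lowest value, 91.8 CPM, is that of the shallowest library and rests on 8 reads, and without it the log2 fold change was -0.73. At 1 m the value was -0.48 (SE 0.31), with 72.9 CPM in TBI rat 2 and 345 CPM in sham rat 1, and it was -0.24 without that sham rat and -0.27 without that TBI rat. At 1 y the order turned, with 215, 276, 257 and 239.6 CPM after TBI and 158, 226, 183 and 172 CPM after sham surgery. TBI rats 2, 3 and 4 were then above the whole sham group (log2 fold change 0.40, SE 0.13).

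**Figure D3:**
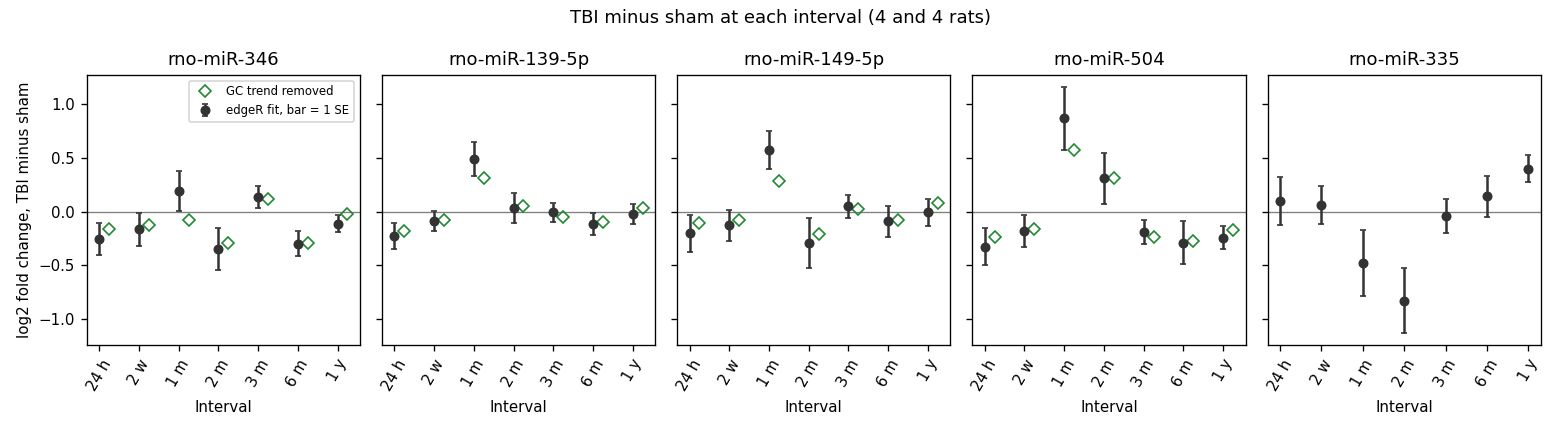
Log2 fold change, TBI minus sham, of each miRNA at each interval (filled circles, bars of 1 SE, 4 and 4 rats), with the value after removal of each library's GC trend as open diamonds for the 4 miRNAs with a sequence. At 1 m the circles of miR-139-5p, miR-149-5p and miR-504 lie at 0.49, 0.58 and 0.87 and the diamonds at 0.31, 0.29 and 0.57.

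At the remaining intervals no member separated the groups. The share of all miRNAs without overlap was 4.29% at 24 h, 5.29% at 2 w and 5.08% at 2 m, and it was 4.09% and 5.33% at 3 m and 1 y. The share with an adjusted p under 0.05 by edgeR's quasi-likelihood test was 1.72% at 24 h (4 miRNAs, with 12 at an unadjusted p under 0.05 and 5 by the Wald test of DESeq2). It was 0% at 2 w and 0% at 2 m, and again 0% at 3 m and 0% at 1 y. At the 5 intervals with no such miRNA (2 w, 2, 3 and 6 m and 1 y), 21, 17, 12, 11 and 22 miRNAs had an unadjusted p under 0.05, and the Wald test of DESeq2 called 7, 1, 1, 0 and 0. The miRNAs of the injury response list (miR-155, miR-21 and miR-146a) stood in sum at 16032 to 22443 CPM after TBI and 5550 to 8296 CPM after sham surgery at 24 h, without overlap. This sum overlapped at the other 6 intervals, and every other marker sum overlapped at all 7. The injury response sum is mostly miR-21-5p (median 7755 CPM, against 800 for miR-146a-5p and 8.89 for miR-155-5p). No member separated the groups at 24 h.

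The change of level over the intervals, averaged over TBI and sham rats, was tested with edgeR's quasi-likelihood F test over all 56 libraries, with Benjamini-Hochberg adjustment over 244 miRNAs. Each average holds TBI and sham values, among them those that chose the members. A member's call here is thus not free of the choice. The values in sham rats alone, which entered the choice too, stand beside it below. Of the 5 members 3 were called, miR-346 (adjusted p = 1.48e-05), miR-139-5p (adjusted p = 6.37e-05) and miR-504 (adjusted p = 0.0378). miR-149-5p (adjusted p = 0.0578) and miR-335 (adjusted p = 0.475) did not pass. Over all miRNAs 137 of 244 (56.1%) were called, so the members' share of 60% is near the background. Of the 127 other tested miRNAs that the annotation places inside another gene on their own strand, 68 were called, 43 of them higher and 25 lower at 1 y than at 24 h. Their median log2 fold change from 24 h to 1 y was 0.04, and that of all miRNAs tested was 0.01.

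miR-346 was highest at 24 h and lowest at 2 m. Over TBI and sham rats together it was 237 ± 38.7 CPM at 24 h (SD, n = 8) and 149 ± 32.5 CPM at 2 m (n = 8), or 155 ± 29.1 CPM without the shallowest library (n = 7). The log2 fold change between them was 0.65 (SE 0.096, adjusted p = 3.16e-06 over all miRNAs and all 21 pairs of intervals). In order from the lowest the intervals were 2 m, 6 m, 2 w, 1 y, 1 m, 3 m and 24 h, and no neighbours in this order differed beyond their spread. Of the 21 pairs 9 had an adjusted p under 0.05, against 13.1% of pairs over all miRNAs. In 5 of them 24 h was higher than a later interval, in 3 more 2 m was lower than 1 m, 3 m or 1 y, and in the last 3 m was higher than 6 m.

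The level of miR-346 fell from 24 h to 2 m in sham rats fitted alone, by a change of -0.62 on the log2 scale (edgeR adjusted p = 0.00569). The change in TBI rats fitted alone was -0.73. Sham rats had 229 to 309.8 CPM at 24 h and 142 to 198 CPM at 2 m, without overlap. Over all intervals miR-346 was called in sham rats alone (adjusted p = 0.0131, against 27.1% of miRNAs), the only member that was. The differences that chose the members hold the sham values too, so these sham results are not free of the choice either. In TBI rats alone 25% of all miRNAs were called. Those values chose the members, so no p-value of a member from that fit is read as a test.

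miR-139-5p had the reverse order at the start, being lowest at 24 h, at 6688 ± 811 CPM (SD, n = 8), and highest at 1 m, at 9091 ± 1644 CPM (n = 8). The log2 fold change was 0.43 (SE 0.070). No neighbours in the order 24 h, 3 m, 2 w, 6 m, 1 y, 2 m and 1 m differed beyond their spread. In sham rats alone the change from 24 h to 1 m was 0.10 (adjusted p = 0.603) and the interval effect had an adjusted p of 0.337. In TBI rats alone the change was 0.76, given without a test. The TBI rats at 24 h and 1 m that set the averaged order are those with the differences from sham rats described above.

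miR-149-5p and miR-504 were both highest at 1 m on average. miR-149-5p was 2592 ± 612 CPM at 1 m and 1941 ± 217 CPM at 3 m, its lowest interval (SD, n = 8 each, log2 fold change 0.39, SE 0.12). With the GC trend removed the change from 1 m to 3 m was -0.24 on the log2 scale, and the interval effect had an adjusted p of 0.491. miR-504 was 1405 ± 677 CPM at 1 m and 929.6 ± 213 CPM at 6 m (SD, n = 8 each, log2 fold change 0.55, SE 0.15). In sham rats alone the change of miR-504 from 1 m to 6 m was -0.0013 on the log2 scale (adjusted p = 0.999), and the interval effect had an adjusted p of 0.827 for miR-149-5p and 0.0776 for miR-504. Over both treatments the adjusted p of miR-504, 0.0378, rose to 0.123 without TBI rat 2 at 1 m. The TBI rats at 1 m, which set the highest average of both miRNAs, hold values that chose them.

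miR-335 ranged from 184 ± 32.5 CPM at 2 w to 234 ± 106.9 CPM at 2 m (SD, n = 8 each), or 255 ± 97.2 CPM at 2 m without the shallowest library (n = 7). None of its 21 pairs was called, and the adjusted p of the interval effect was 0.112 in sham rats alone. For miR-149-5p, miR-504 and miR-335, too, no neighbours in the order of intervals differed beyond their spread.

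**Figure D4:**
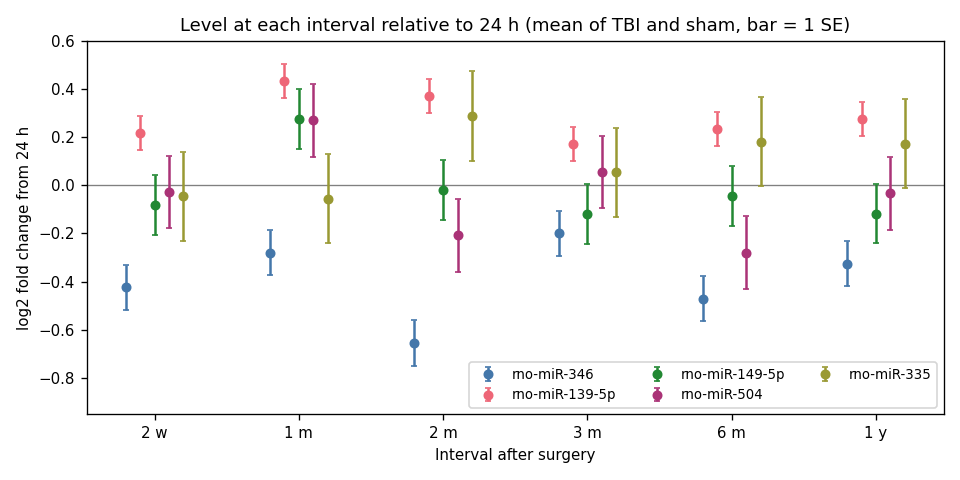
Log2 fold change of each miRNA from 24 h to each later interval, averaged over TBI and sham rats (points, bars of 1 SE, 56 libraries). miR-346 lies below 0 at every later interval, with its lowest point at -0.65 at 2 m, and miR-139-5p lies above 0 at every later interval, with its highest point at 0.43 at 1 m.

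Within groups, the members did not vary as 1 set. After the mean of each of the 14 groups was subtracted, Pearson's r over the 55 deeper libraries, which share their depth and scaling, was -0.80 between miR-504 and miR-335, 0.48 between miR-346 and miR-149-5p, and 0.39 between miR-139-5p and miR-504. The other 7 pairs lay between -0.12 and 0.28. miR-504 and miR-335 lay on opposite sides of their group means in 43 of 55 libraries. The value was -0.77 in the 28 sham libraries and -0.83 in the 27 TBI libraries, so the opposite variation was present with and without injury. The rats with the highest miR-504 of their groups, TBI rat 2 at 1 m and TBI rat 3 at 2 m, had 72.9 and 117 CPM of miR-335.

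The miRNAs most like miR-504 were miR-99b-5p (r = 0.80), miR-99a-5p (r = 0.66) and miR-24-1-5p (r = 0.56), and the least like was miR-126a-5p (r = -0.85), a miRNA of vessel endothelium. Those most like miR-335 were miR-592 (r = 0.80), miR-153-5p (r = 0.79) and miR-126a-5p (r = 0.78), and the least like was miR-504. The summed level of 3 vessel wall markers (miR-143, miR-145 and miR-126a) had r = -0.73 with miR-504 and 0.70 with miR-335. All 3 were detected in every library, and the sum, 697 to 2077 CPM, was lowest in TBI rat 2 at 1 m. Of the 3, miR-126a-5p had the highest median (704 CPM, against 431 for miR-145-5p and 47.6 for miR-143-5p). The r of the sum is thus not separate from that of miR-126a-5p. The GC slope of the library had r = 0.58 with miR-504 and -0.53 with miR-335. miR-99b-5p has 63.6% GC, and miR-592, miR-126a-5p and miR-153-5p have 34.8%, 38.1% and 39.1%. In bulk tissue fewer cells of a type and less RNA per cell cannot be told apart, and the parts of vessel content and base composition in this pattern were not tested.

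**Figure D5:**
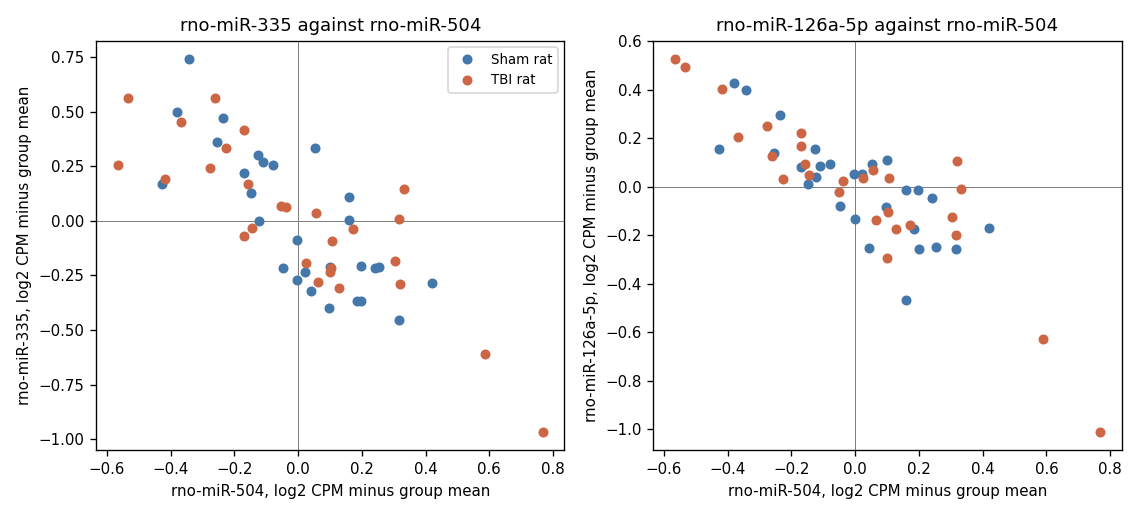
Level of miR-335 (left) and miR-126a-5p (right) against miR-504 in 55 libraries, each as log2 CPM minus the mean of its group, with sham rats in blue and TBI rats in orange. In both panels libraries with more miR-504 have less of the other miRNA, with r of -0.80 and -0.85.

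The likeness of the other members was weaker. miR-346 was most like miR-125b-5p (r = 0.55), miR-125a-5p (r = 0.54) and miR-191a-5p (r = 0.51). miR-139-5p was most like miR-369-5p (r = 0.55), miR-425-5p (r = 0.55) and miR-344b-5p (r = 0.51). miR-149-5p was most like miR-323-5p (r = 0.54), miR-378a-5p (r = 0.52) and miR-125a-5p (r = 0.49). The summed leukocyte and microglia, red blood cell, choroid plexus, oligodendrocyte, neuron and injury response markers had r between -0.29 and 0.35 with each of the 5 members. In that order the miRNAs with the highest median in each sum were miR-150-5p (974 CPM), miR-486 (178), miR-204-5p (2183), miR-338-5p (1888), miR-9a-5p (199733) and miR-21-5p (7755). A sum therefore mostly follows its most abundant miRNAs. Of the miRNAs counted, 309 are named as 5p arms and 5 as 3p arms. These r values are thus no measure of cell content. The choroid plexus sum reached 20842 CPM in sham rat 3 at 3 m, against a median of 2231 CPM over the libraries.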

How the data were processed

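Per the labels and the study's methods, total RNA came from hippocampal tissue (Ribopure) and small RNA libraries from a NEBNext kit. After adapter trimming the authors used miRDeep2 and miRBase to obtain a count for each mature miRNA. The submitters' notes name bcl2fastq 2.20.0.422. The deposited values are raw counts, and 0 columns were left out. How reads that match several miRNAs were divided is not given in the sources used here.

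Tests used edgeR 4.0.16 under R 4.3.3: low counts were removed with filterByExpr, libraries scaled by TMM, and quasi-likelihood p-values adjusted by Benjamini-Hochberg (threshold 0.05). Each interval was fitted on its 8 libraries for TBI minus sham, and all 56 libraries were fitted with 14 group means for the interval effect. Log2 CPM used a prior count of 2. The steps were tested on simulated data. Positions come from RefSeq, in which 307 of 367 miRNAs matched by name and 165 of these lie inside another gene on their strand. Genes without a strand in the sources used, among them Grid1 and Gpc1, could not count as hosts. The 165 thus leave out miR-346 and miR-149-5p, and may leave out others. Named beside each member are the 3 miRNAs with the highest within-group correlation, and the least like was chosen after its value was seen. The members, lists and tests were chosen with earlier results of these data known. Alternatives were other scalings, filters and tests (DESeq2 1.42.0), each rat left out and each treatment alone. The GC trend and leaving out 2 w and 6 m were added after the data were seen. p-values measure the spread between libraries, each taken as 1 rat.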

Additional observations from a re-analysis of the deposited data

Results flagged for a closer look

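In 70 groups of 4 rats (5 miRNAs in 14 groups), 5 held a rat far from the other 3 by Dixon's criterion, where chance flags about 1 in 20 groups, or 3.5 of 70. miR-139-5p was 6659.6 CPM in sham rat 3 at 24 h and 7360.1 to 7453 CPM in the other 3. It was 9672 CPM in sham rat 2 at 2 m, against 7977 to 8176 CPM. In TBI rat 3 at 6 m it was 9048 CPM, against 6950.4 to 7126 CPM. miR-504 was 914 CPM in TBI rat 3 at 3 m, against 1111 to 1151 CPM. miR-335 was 345 CPM in sham rat 1 at 1 m, against 165 to 179 CPM.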

How the results depend on the processing

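No direction of a tested result was reversed. The adjusted p of the interval effect of miR-149-5p, 0.0578, went under 0.05 in several settings. It was 0.0350 with the size factors of DESeq2, 0.00211 with total count and 0.0197 with no filter. With at least 10 counts in every deep library it was 0.0418. The likelihood ratio tests of DESeq2 and edgeR gave 0.0246 and 0.0422. It was 0.0415 without the shallowest library and 0.0437 without 2 w and 6 m. The fit of TBI rats alone printed 0.0106 for miR-149-5p. That value is no test of it and is not counted with these settings, because the TBI values chose the members. The call of miR-504 was lost without 2 w and 6 m (0.0932) and in sham rats alone (0.0776). The call of miR-139-5p was lost in sham rats alone (0.337). The cause was not tested. With sham or TBI rats alone, on fewer libraries, 65 or 60 miRNAs were called, 32 or 30 of them inside other genes. Leaving out 1 rat at a time gave adjusted p-values of 3.94e-06 to 3.78e-05 (miR-346), 2.50e-05 to 7.65e-04 (miR-139-5p), 0.0216 to 0.222 (miR-149-5p), 0.00417 to 0.123 (miR-504) and 0.245 to 0.764 (miR-335), with 125 to 155 miRNAs called, 64 to 82 of them inside other genes. Of the 35 differences between TBI and sham, 12 changed sign under at least 1 alternative, the largest of which was 0.20 on the log2 scale before. With the GC trend removed those at 1 m fell from 0.49 to 0.31 (miR-139-5p) and from 0.58 to 0.29 (miR-149-5p), and that of miR-346 went from 0.20 to -0.08.

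At 1 y each sequencer sample number is shared by 1 sham and 1 TBI library. Deviations of same-numbered libraries correlated at 0.114, 0.0284, 0.412 and 0.104. No value for differently numbered libraries stands beside these, so they cannot show whether the numbers pair the samples. With the number as a replicate block the log2 fold change of miR-335 at 1 y was 0.41, and that of miR-149-5p was 0.0026 instead of -0.0047. At the other intervals no paired analysis was possible because the groups share no number. Levels in the library with 69628 counts rest on 8 to 737 reads a miRNA.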
